A study of Mus musculus with 72 samples.

Results

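Female B6C3F1 mice that drank water with 40 mg/mL tertiary butyl alcohol (TBA) for 14 d were compared with mice that drank water at 0 mg/mL for the same 14 d, over all probes measured in their livers. The 40 mg/mL group and the control group held 9 mice each, 1 library per mouse, chosen by the labels for dose and duration. The library of dosed replicate 5 held under 100000 counts and was left out, which left 8 dosed and 9 control livers of the 72 in the series. B6C3F1 is a hybrid strain of laboratory mouse; the animals were 9 to 11 weeks old, were housed singly and carried no engineered allele that the labels name. The other groups of the series drank 10 or 20 mg/mL for 14 d, or any of the 4 concentrations for 28 d, and are used here only beside the values of these 17 livers.

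TBA is a tertiary alcohol, a solvent and a product of the breakdown of fuel ethers; as a tertiary alcohol it is a poor substrate of the alcohol dehydrogenases that oxidise ethanol. The liver takes up most of what is absorbed from the gut. Its hepatocytes make the bulk of the plasma proteins, among them clotting factors, complement and apolipoproteins, as well as bile acids and fatty acids, and they oxidise and conjugate foreign compounds. Much of this output is set by hormones, growth hormone and thyroid hormone among them, and the title of the series asks about an anti-thyroid mode of action. In a whole liver section, fewer cells of a type and less RNA per cell cannot be told apart.

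Transcripts were read with TempO-Seq, in which pairs of short detector oligos anneal side by side on a chosen transcript, are ligated and are then sequenced and counted. Each feature is therefore 1 probe, named by its gene and a number. Levels are given as CPM, each count divided by the size of its library and set to a fixed total, with library sizes scaled by TMM, the trimmed mean of M values, and differences as log2 fold changes (log2FC) of 40 mg/mL over control from edgeR's quasi-likelihood test, with adjusted p-values by Benjamini and Hochberg over all 17050 tested features. CPM of different probes also depend on how well each oligo pair binds, so levels are compared between groups and not between genes.

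The 2 groups were read to a like depth, with 8.32 to 11.4 M (mega) counts at 40 mg/mL and 9.05 to 12.4 M in controls (difference in means -0.59 M, exact two-sided permutation p = 0.336). Their make-up differed more. The 20 most abundant features took 14.7% ± 3.65 of the counts at 40 mg/mL and 22.5% ± 1.02 in controls (SD, n = 8 and 9; difference -7.86 percentage points, exact two-sided permutation p = 4.114e-05, the smallest that 8 against 9 animals can give). Features with at least 10 counts numbered 15220 ± 720.5 at 40 mg/mL and 14390 ± 261 in controls (SD; exact two-sided permutation p = 0.00313). The log2 TMM factor averaged 0.29 ± 0.28 at 40 mg/mL and -0.16 ± 0.05 in controls, and it was highest in dosed replicates 7, 1, 2 and 8. The median log2FC over all tested features was 0.06 with TMM scaling and 0.54 with scaling by library size alone, a shift of 0.47, so each difference below is relative to TMM scaling. Counts of called members are given with and without replicates 1, 2, 7 and 8 for the lists described below.

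Of 17050 tested features, 1111 passed an adjusted p of 0.05 (6.52%), 484 higher (2.84%) and 627 lower (3.68%) at 40 mg/mL. With scaling by library size alone, 6129 were higher and 293 lower. They belong to 933 gene symbols, 427 higher and 506 lower, and 0 symbols had probes in both directions. The lower features were mostly abundant liver transcripts. Of the 142 features with a control mean of at least 1000 CPM, 76 fell (53.5%) and 0 rose, and of the 1414 between 100 and 1000 CPM, 274 fell (19.4%) and 48 rose (3.40%). Below 5 CPM the balance was the other way, with 159 higher and 10 lower of 7230. That balance is partly set by the classes, because the control mean also enters the log2FC. A feature near 0 CPM in controls has little room to be called lower, and the filter keeps it where another group is high. The median control level was 121 CPM for the lower features and 12.1 CPM for the higher ones, against 7.40 CPM in controls for all tested. Typical sizes were moderate: the median log2FC was 0.79 among the higher and -0.76 among the lower features, and 182 rose and 138 fell by more than 1 log2 unit.

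**Figure D1:**
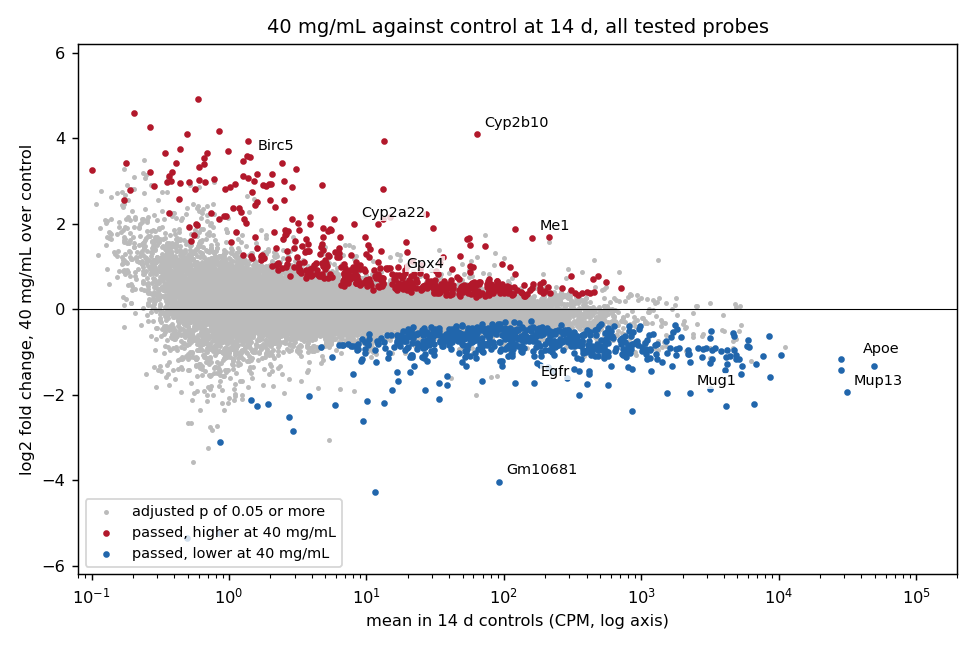
Log2 fold change of 40 mg/mL over control at 14 d (vertical axis) against mean control level in CPM (horizontal log axis), 1 point per tested feature; the 17 features with a control mean under 0.1 CPM are not drawn. Features that fell crowd the right side, where 76 of the 142 features at or above 1000 CPM lie, and features that rose spread over the low and middle levels. Features with a low control mean have little room to be called lower.

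The 8 dosed livers did not take part equally. Of the 627 lower features, replicate 1 was below every control in 600, replicate 8 in 581, replicate 7 in 578, replicate 2 in 558 and replicate 9 in 533. Replicates 6, 4 and 3 were below every control in 350, 325 and 304. Of the 484 higher features, replicates 1 and 7 exceeded every control in 438 and 415, and the other 6 animals in 219 to 335. Without replicates 1, 2, 7 and 8, which leaves 4 dosed animals, 57 features rose and 32 fell, 45 and 28 of them shared with the full comparison. In that fit 483 of the 484 higher features kept a positive log2FC, and all 627 lower ones a negative one. The 4 animals left are also part of the full comparison, so a shared sign is not a separate check. With fewer animals, a lost call does not show that a feature was unchanged. Single animals mattered as well: of 139 named features that passed, 49 (27 higher and 22 lower) lost the call in at least 1 of the 17 fits that left out 1 liver. Among those named below, Ccng1, Lbp, Pdia4, Hsp90b1, Ces1c, Ces1g, Aldh1b1, Tmprss6 and Ndufa1 did so without replicate 1 and also without replicate 7 (adjusted p from 0.0506 to 0.12).

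Separation of the groups rests on the same values as the calls. Few of the higher features separated the groups fully: all 8 dosed livers exceeded all 9 controls in 16 of 484, against 17 of all 17050 tested. Of these, 9 features of 8 genes also passed in each of 29 other ways of processing that kept 7 or 8 dosed animals. Cyp2a22, a cytochrome P450 of the CYP2A family, had the greatest difference among them. It had 15.8 CPM in the lowest, 31.4 in the median and 60.1 in the highest dosed liver, against 4.69, 6.09 and 15.7 CPM in controls. The lowest dosed animal, replicate 9, lay just above the highest control (log2FC 1.98, SE 0.35, adjusted p = 0.000207). Map4k4, a kinase of the stress-activated MAP kinase cascade, had 14.4, 20.4 and 47.9 CPM in the lowest, median and highest dosed liver, against 7.48, 9.27 and 12.8 CPM in controls (log2FC 1.28, SE 0.22, adjusted p = 6.87e-05), with the top value in replicate 7. Akr1b10, an aldo-keto reductase of the group that reduces lipid aldehydes, had 9.40, 11.4 and 19.4 CPM against 3.06, 6.92 and 8.69 CPM in controls (log2FC 0.98, SE 0.19). Its second probe had a similar log2FC of 1.03 but did not pass (adjusted p = 0.0532).

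Pctp encodes a carrier protein that moves phosphatidylcholine between membranes. It had 46.1, 60.7 and 72.2 CPM in the lowest, median and highest dosed liver, against 21.3, 32.1 and 42.3 CPM in controls (log2FC 0.89, SE 0.18, adjusted p = 0.000742). The dosed animals lay in a narrow band, all above the highest control. Gpx4, the glutathione peroxidase that reduces lipid peroxides within membranes, was higher by both of its well-detected probes. Probe Gpx4_32041 had 100, 115 and 142 CPM against 71.9, 83.7 and 89.6 CPM in controls (log2FC 0.52, SE 0.10), and Gpx4_71385 had 25.0, 28.1 and 41.8 CPM against 14.3, 17.1 and 20.3 CPM in controls (log2FC 0.79, SE 0.13, adjusted p = 3.09e-05). Both Gpx4 probes still passed without replicates 1, 2, 7 and 8 (adjusted p = 0.015 and 0.017). Bag1, a co-chaperone of HSP70, had 114, 134 and 170 CPM against 78.8, 94.9 and 111 CPM in controls (log2FC 0.51, SE 0.10). The ferritin light chain Ftl1 and the ribosomal protein Rps24, described below with their groups, complete the 8 genes.

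Separation was more common among the lower features: all 8 dosed livers lay below all 9 controls in 98 of 627, against 100 of all 17050 tested. Of these, 37 features of 32 genes also passed in each of the 29 other ways of processing. Of the 37 features, 6 measured major urinary proteins (Mups), lipocalins made by the liver and excreted as pheromone carriers. Mup13 had 2945 CPM in the lowest, 7453 in the median and 16270 in the highest dosed liver, against 24820, 30810 and 37640 CPM in controls (log2FC -1.95, SE 0.30, adjusted p = 1.96e-05). Mup16 had 47.4, 79.8 and 156 CPM against 259, 364 and 433 CPM in controls (log2FC -2.02, SE 0.28). Both still passed without replicates 1, 2, 7 and 8 (adjusted p = 0.022 and 0.0025).

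Mup genes are near-identical copies in 1 cluster, and reads of one can be counted by the probe of another, so the values of single Mups are uncertain. The start regions show how alike they are. RefSeq's windows of the 2 genes Mup15 and Mup19, 250 bases before to 50 after the start of the gene (build GRCm38.p6, minus strand, chr4:61439655-61439954 and chr4:61782175-61782474), are printed because both genes were below all controls in every dosed liver by their most abundant probes and share a run of 275 bases, shown in capitals.
Mup15: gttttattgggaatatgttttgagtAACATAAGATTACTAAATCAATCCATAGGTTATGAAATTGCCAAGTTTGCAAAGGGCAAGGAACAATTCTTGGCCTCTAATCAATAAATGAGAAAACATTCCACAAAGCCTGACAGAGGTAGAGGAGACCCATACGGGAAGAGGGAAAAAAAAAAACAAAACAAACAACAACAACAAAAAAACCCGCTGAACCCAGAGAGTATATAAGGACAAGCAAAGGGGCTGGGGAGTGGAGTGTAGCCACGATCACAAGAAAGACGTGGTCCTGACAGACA
Mup19: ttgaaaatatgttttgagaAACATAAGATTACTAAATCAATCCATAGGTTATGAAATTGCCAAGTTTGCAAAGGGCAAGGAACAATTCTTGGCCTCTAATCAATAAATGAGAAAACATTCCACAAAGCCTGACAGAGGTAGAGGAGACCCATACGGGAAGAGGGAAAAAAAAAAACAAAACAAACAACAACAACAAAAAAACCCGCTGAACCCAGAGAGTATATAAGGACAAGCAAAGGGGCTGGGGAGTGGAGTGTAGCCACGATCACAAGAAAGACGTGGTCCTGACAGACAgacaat
Mup15 had 164, 300.1 and 776 CPM in the lowest, median and highest dosed liver, against 986, 1612 and 1885 CPM in controls (log2FC -1.98, SE 0.28). Of the 4 Mup19 probes 3 fell, with log2FC -2.27 (SE 0.40), -1.59 (SE 0.24) and -2.12 (SE 0.65), while Mup19_68456 did not pass, with means of 36.8 CPM in dosed and 38.8 CPM in control livers (log2FC -0.08, SE 0.40).

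Egfr, the receptor for epidermal growth factor, which drives hepatocyte growth and survival, fell by all 3 of its probes. By Egfr_29812 it had 15.1, 50.0 and 92.0 CPM in the lowest, median and highest dosed liver, against 118, 168 and 201 CPM in controls (log2FC -1.74, SE 0.32, adjusted p = 0.000369). By Egfr_66734 its mean was 167 ± 84.8 CPM in dosed and 575 ± 72.5 CPM in control livers (SD, n = 8 and 9; log2FC -1.79, SE 0.39), and Egfr_72327 had log2FC -1.75 (SE 0.38). All 8 dosed livers were below all controls by each probe, with replicate 7 lowest and replicate 4 highest at Egfr_29812. Without replicates 1, 2, 7 and 8 the log2FC of that probe was -1.38 (adjusted p = 0.095).

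Mug1, a murinoglobulin that traps proteases in plasma, had 231, 715 and 810 CPM in the lowest, median and highest dosed liver, against 1866, 2168 and 2953 CPM in controls (log2FC -1.95, SE 0.28, adjusted p = 5.86e-06). Its relative Mug2 was lower as well (log2FC -1.89, SE 0.42), again with all 8 dosed livers below all controls. Ahsg, the plasma glycoprotein fetuin-A, had 511, 812 and 1572 CPM against 1919, 2199 and 3231 CPM in controls (log2FC -1.25, SE 0.19, adjusted p = 1.47e-05). The carboxylesterases Ces3a and Ces3b, lipid and drug hydrolases of the endoplasmic reticulum, had log2FC -1.34 (SE 0.23) and -1.44 (SE 0.23). Hsd17b2, which inactivates oestradiol and testosterone, had a median of 228 CPM in dosed and 591 CPM in control livers (log2FC -1.34). Vtn, the adhesive plasma protein vitronectin, had medians of 641 CPM in dosed and 1501 CPM in control livers (log2FC -1.03), and Gpc4, a heparan sulfate proteoglycan of the cell surface, 66.3 CPM in dosed and 190 CPM in control livers (log2FC -1.11).

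Some falls were of genes outside these families and large in fold. Serpina9, a serine protease inhibitor, had 0 CPM in the lowest, 0.44 in the median and 2.51 in the highest dosed liver, against 3.40, 9.70 and 28.7 CPM in controls (log2FC -4.28, SE 0.82, adjusted p = 0.00051). Gm10681, a predicted gene, had 0, 3.27 and 26.1 CPM against 29.9, 99.7 and 158 CPM in controls (log2FC -4.04, SE 0.78). Selenbp2, a selenium-binding protein, had 0, 0.80 and 5.20 CPM against 5.83, 10.1 and 14.1 CPM in controls (log2FC -2.61, SE 0.66). Slc22a28, of the organic anion transporter family, had 1.47, 2.09 and 3.76 CPM against 5.58, 10.4 and 15.7 CPM in controls (log2FC -2.16, SE 0.44). In all 4 genes every dosed liver was below every control.

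The steepest rises were of another kind, carried by a few animals. Of the 12 features of at least 5 CPM with the largest log2FC, 7 belong to genes that act in mitosis (Pbk, Prc1, Cenpf, Hmmr, Knstrn and Cdc20) and were highest in dosed replicate 7. Sult1e1, the oestrogen sulfotransferase, was at 143 CPM in replicate 9, 6.27 CPM in replicate 8 and at most 2.28 CPM in controls (log2FC 4.91, SE 1.32, adjusted p = 0.0142), and without replicate 9 it had log2FC 1.09 (adjusted p = 0.717). The calls of Prc1, Cenpf, Hmmr, Knstrn and Cdc20 were lost without replicate 7 (adjusted p from 0.0769 to 0.354). Chrna4, a subunit of the nicotinic acetylcholine receptor, stood out by spreading wider over the animals. By Chrna4_70084 it had 52.4 CPM in replicate 3, 32.4 in replicate 8, 18.8 in replicate 1, 2.53 to 5.52 in replicates 4, 6, 7 and 9 and 0.69 in replicate 2, against at most 2.29 CPM in controls (log2FC 4.16, SE 1.04, adjusted p = 0.00824). Its second probe also rose (log2FC 3.75, SE 1.04), with 6 of 8 dosed livers above all controls.

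**Figure D2:**
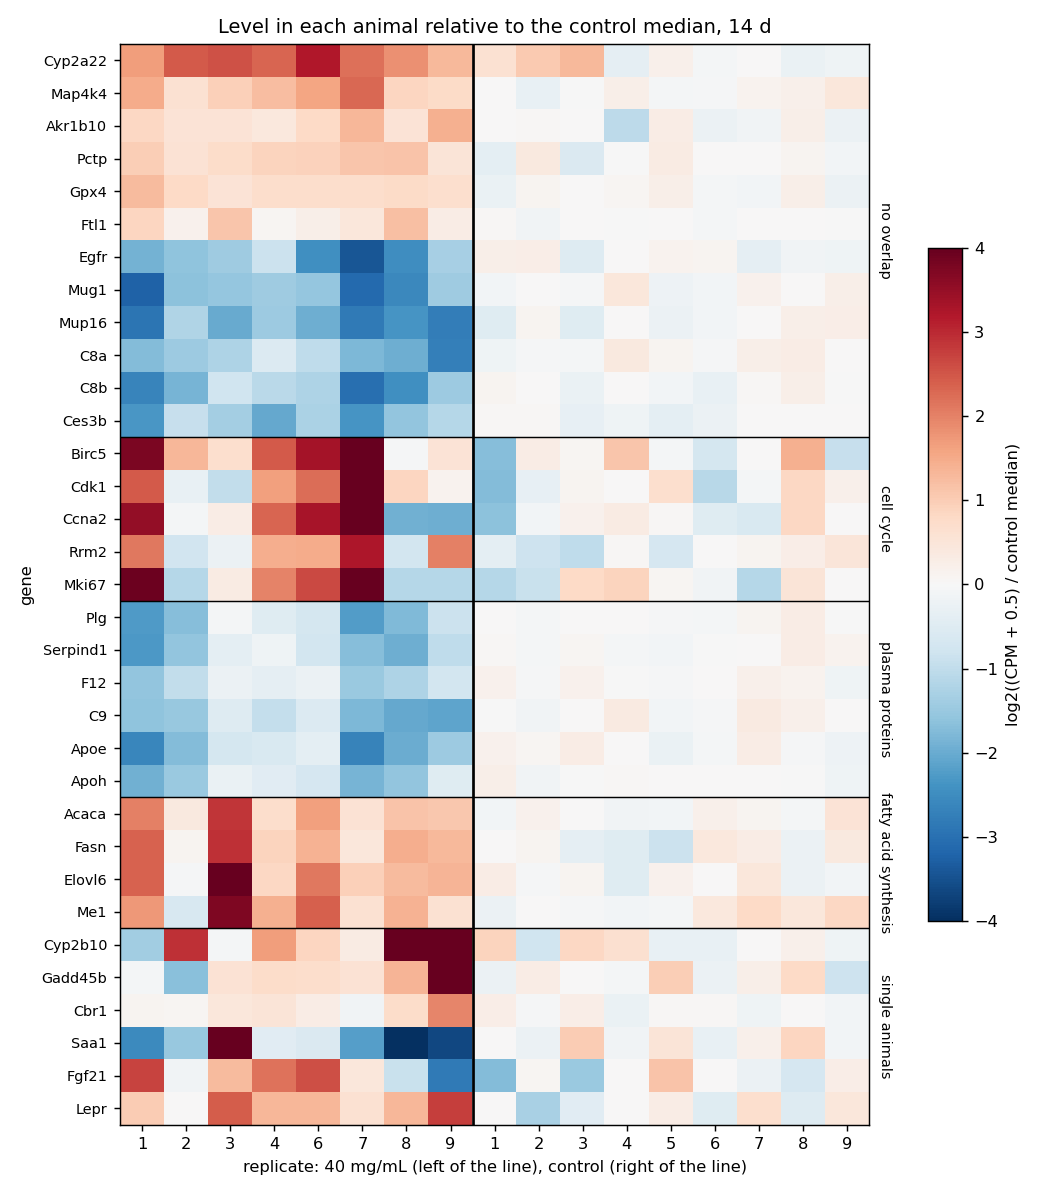
Level of 33 genes in each animal, as log2 of CPM plus 0.5 over the control median plus 0.5, colour limited to 4 units each way; columns are the 8 dosed livers and then the 9 controls. Mup16, Egfr, Mug1, C8a and C8b are low in every dosed column, while the cell cycle genes, Cyp2b10, Gadd45b and Saa1 are high in 1 to 5 dosed columns.

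The growth hormone and insulin-like growth factor (IGF) axis was lower at several points. Growth hormone acts on its hepatocyte receptor to raise IGF1, which circulates bound to IGFALS and the IGF-binding proteins. Of 17 measured members 6 fell, 0 rose and 11 did not pass (median log2FC -0.62, against 0.06 over all tested features; with scaling by library size alone 2 rose and 5 fell). Igf1 had 20.9, 27.3 and 38.7 CPM in the lowest, median and highest dosed liver, against 32.5, 53.5 and 60.1 CPM in controls (log2FC -0.85, SE 0.14, adjusted p = 4.74e-05), and 7 of 8 dosed livers were below every control. Igfals had 0.69, 2.20 and 7.54 CPM against 3.40, 8.00 and 11.8 CPM in controls (log2FC -1.52, SE 0.30, adjusted p = 0.000757). Igfbp2 had 2.53, 14.5 and 16.9 CPM against 22.9, 26.0 and 34.3 CPM in controls, with all 8 dosed livers below all controls (log2FC -1.21, SE 0.29, adjusted p = 0.0056). The receptors followed: Prlr, for prolactin, had medians of 151 CPM in dosed and 312 CPM in control livers (log2FC -0.87, SE 0.21), and Ghr, for growth hormone, 91.2 CPM in dosed and 128 CPM in control livers (log2FC -0.62, SE 0.20, adjusted p = 0.039).

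Igfals was the member of this axis that still passed without replicates 1, 2, 7 and 8 (adjusted p = 0.017), and Igf1 had adjusted p = 0.056 there. Genes that adult males express more than females depend on the pulses of growth hormone, and the mice here were female. Of 17 measured 10 fell and 0 rose (median log2FC -1.33), with Mup3 and Mup20 among the fallen. The count of fallen male-biased genes was again 10 with scaling by library size alone, but 1 without replicates 1, 2, 7 and 8 (median log2FC -1.13) and 2 with the log2 TMM factor in the model. Among 22 measured female-biased genes 2 fell and 2 rose, where 3.68% of all tested features fell and 2.84% rose. With scaling by library size alone 1 fell and 11 rose, and without replicates 1, 2, 7 and 8, 0 fell and 1 rose. Among the 2 that rose in the full comparison was Acot3, a peroxisomal acyl-CoA thioesterase, with medians of 93.1 CPM in dosed and 31.5 CPM in control livers (log2FC 1.89, SE 0.51, adjusted p = 0.0142).

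Clotting factors and their inhibitors fell as a group. Of 20 measured coagulation genes 13 fell, 0 rose and 7 did not pass; all 20 had a negative log2FC, also with scaling by library size alone, where 14 fell (median log2FC -0.92). Proc, the zymogen of the anticoagulant protein C, had 69.8 CPM in the lowest, 94.3 in the median and 160 in the highest dosed liver, against 188, 206 and 255 CPM in controls (log2FC -0.95, SE 0.16, adjusted p = 8.18e-05). Serpind1, the thrombin inhibitor heparin cofactor, had 95.9, 196 and 415 CPM against 436, 470.2 and 577 CPM in controls (log2FC -1.10, SE 0.21, adjusted p = 0.000416). Plasminogen (Plg), the precursor of the enzyme that dissolves fibrin, had 892, 1846 and 4042 CPM against 4075, 4308 and 5279 CPM in controls (log2FC -1.09, SE 0.24). In each of these 3 all dosed livers lay below all controls.

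Procoagulant genes moved the same way. F10 and F7, the proteases that start and drive thrombin formation, had medians of 183 and 96.6 CPM in dosed and 486 and 155 CPM in control livers (log2FC -0.97 and -0.70), with 7 of 8 dosed livers below every control for both. Fgg, the gamma chain of fibrinogen, had 943, 1489 and 5081 CPM in the lowest, median and highest dosed liver, against 3544, 4962 and 5606 CPM in controls (log2FC -1.18, SE 0.27, adjusted p = 0.00378). The dosed range overlapped the controls through replicates 3 and 4, at 5081 and 4029 CPM. The other chains gave mixed calls by probe: the most abundant Fga probe had log2FC -1.21 (adjusted p = 0.0684), while 2 others passed (log2FC -1.34 and -1.13). Of Fgb, the most abundant probe did not pass (adjusted p = 0.0812) and another did (log2FC -1.14, adjusted p = 0.00326). Serpinf2 and Serpinc1, the inhibitors of plasmin and thrombin, had log2FC -1.32 (SE 0.34) and -0.92 (SE 0.25).

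Complement, the plasma cascade that marks and lyses microbes, had members that fell from its first steps to its last. Of 19 measured members 13 fell, 0 rose and 6 did not pass (median log2FC -0.86; with scaling by library size alone 10 fell and the median was -0.44). The terminal components, which assemble into the lytic pore, led. C8b had 35.5, 92.3 and 167 CPM in the lowest, median and highest dosed liver, against 237, 292 and 345 CPM in controls (log2FC -1.61, SE 0.30, adjusted p = 0.000322). C8a had 57.8, 130 and 268 CPM against 344, 390.5 and 513 CPM in controls (log2FC -1.52, SE 0.26), C8g 159, 198 and 248 CPM against 295, 360.1 and 649 CPM in controls (log2FC -0.98, SE 0.16, adjusted p = 3.09e-05), and C9 174, 254 and 529 CPM against 684, 756 and 977 CPM in controls (log2FC -1.34, SE 0.25). For these 4 genes all 8 dosed livers were below all 9 controls, and so were they for Mbl1, a mannose-binding lectin that starts the cascade (log2FC -0.93, SE 0.22). C3, its central component, had 1047, 2223 and 4036 CPM against 3972, 4639 and 5424 CPM in controls, with 7 of 8 dosed livers below every control (log2FC -0.95, SE 0.24, adjusted p = 0.00849).

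C8a is also male-biased in mouse liver, and its start region is printed because it alone among the 10 fallen complement genes with a RefSeq window held the letters TTCNNNGAA, a spacing that STAT5 binds (either strand). The window lies at chr4:104876349-104876648 (GRCm38.p6, minus strand), and capitals mark the match.
C8a: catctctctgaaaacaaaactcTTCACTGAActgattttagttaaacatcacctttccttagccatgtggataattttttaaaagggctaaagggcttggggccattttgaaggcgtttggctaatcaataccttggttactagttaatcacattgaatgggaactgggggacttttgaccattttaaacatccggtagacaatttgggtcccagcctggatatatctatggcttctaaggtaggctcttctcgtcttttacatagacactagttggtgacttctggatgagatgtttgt
The same letters stood in 8.31% of the 9234 tested genes with a window, in 4.32% of the higher and in 8.04% of the lower genes with one.

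In both groups the falls followed the animals. Coagulation genes summed to 5969, 6663, 8057, 8956 and 13220 CPM in dosed replicates 7, 1, 8, 2 and 9, to 27410, 28330 and 33390 CPM in replicates 6, 4 and 3, and to 31700 to 41100 CPM in controls. Complement genes summed to 3211 to 5199 CPM in the same first 5 animals and to 8744 to 10010 CPM in replicates 3, 4 and 6, against 9887 to 13120 CPM in controls. Without replicates 1, 2, 7 and 8, 0 coagulation genes and 1 complement gene, C8g, fell (medians -0.42 in both lists), and 2 and 3 did when the log2 TMM factor was added to the model. Complement counts fell to 7 without replicate 1, 7, 8 or 9 alone. Of 25 measured acute phase genes, which the liver raises in inflammation, 4 fell and 0 rose (3 fell and 1 rose with scaling by library size alone, 1 rose in DESeq2, 9 fell without replicate 3, and 0 passed without replicates 1, 2, 7 and 8). Among the fallen were the haem carrier Hpx (medians 658 CPM in dosed and 1775 CPM in control livers, log2FC -1.08, SE 0.26) and Lbp, which binds bacterial lipopolysaccharide (log2FC -0.84, SE 0.26). Saa4, a serum amyloid A gene, also passed, with 0 CPM in 7 dosed livers and 0.115 CPM in replicate 6, against 0 to 2.57 CPM in controls.

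**Figure D3:**
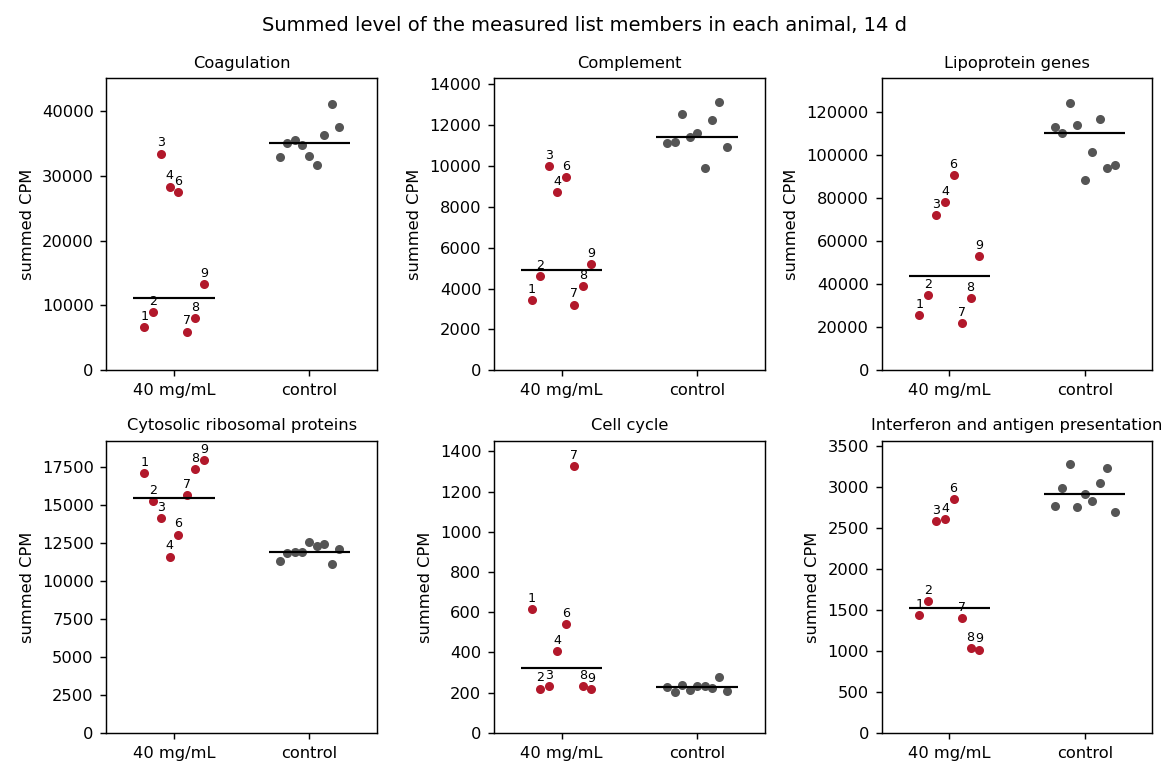
Summed CPM of 6 gene lists in each liver, 40 mg/mL left of control in each panel, dosed replicates numbered, the line at the group median. Replicates 3, 4 and 6 lie near the controls for coagulation, complement and lipoprotein genes, where replicates 1, 2, 7 and 8 lie lowest, and replicate 7 lies highest for cell cycle genes.

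Apolipoproteins and the proteins that handle lipoproteins were lower. Of 22 measured lipoprotein genes 11 fell, 0 rose and 11 did not pass, with a median log2FC of -0.49 (-0.05 with scaling by library size alone, where 3 rose and 7 fell). Apoe, which directs remnant particles to the liver, had 7593 CPM in the lowest, 16110 in the median and 37100 in the highest dosed liver, against 39840, 48160 and 58880 CPM in controls (log2FC -1.32, SE 0.27, adjusted p = 0.000757). All 8 dosed livers lay below all controls by this probe, and 2 further Apoe probes fell (log2FC -1.17 and -1.10), while the fourth, with a mean of 12.7 CPM in dosed and 11.8 CPM in control livers, did not pass. Apoh, a plasma protein that binds phospholipids, had 581, 1075 and 1804 CPM against 1923, 2188 and 2585 CPM in controls (log2FC -0.95, SE 0.18, adjusted p = 0.000416). Apom, the carrier of sphingosine 1-phosphate, had log2FC -0.84 (SE 0.20), Scarb1, the receptor for high-density lipoprotein, -0.70 (SE 0.18), and Lipc, hepatic lipase, -0.96 (SE 0.28). Apob, the structural protein of very-low-density lipoprotein, did not pass by its most abundant probe (log2FC -0.31, adjusted p = 0.0992) but fell by a second (log2FC -0.75, adjusted p = 0.00234). Without replicate 7 alone 5 members fell, without replicates 1, 2, 7 and 8 none of the list passed, and its summed level was 22080 to 53190 CPM in replicates 1, 2, 7, 8 and 9, 72030 to 90710 CPM in replicates 3, 4 and 6, and 88530 to 124200 CPM in controls.

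Bile acid genes were mixed. Of 24 measured 8 fell, 1 rose and 15 did not pass (median log2FC -0.26, but 0.19 with scaling by library size alone, where 3 fell and 6 rose). The count of falls was 4 without replicate 1 alone and 1 without replicates 1, 2, 7 and 8. The falls lay along the route from cholesterol to secreted bile acid. Cyp7b1 and Hsd3b7, enzymes of the oxysterol and sterol nucleus steps, had medians of 4.96 and 388 CPM in dosed and 16.5 and 589 CPM in control livers (log2FC -1.68, SE 0.33, and -0.64, SE 0.14). Cyp8b1, which makes cholic acid, had log2FC -0.94 (SE 0.27), and Cyp2c70, which makes the muricholic acids of mice, -1.26 (SE 0.34). Abcb11, the export pump into bile, had log2FC -0.65 (SE 0.17) and Slc10a1, the uptake carrier from blood, -0.53 (SE 0.17). Cyp7a1, the rate-limiting enzyme of the main route, did not pass, with 25.2, 141 and 724 CPM in the lowest, median and highest dosed liver and 60.8, 267 and 581 CPM in controls (log2FC -0.21, adjusted p = 0.877). The 1 member that rose was Abcc4, an export pump on the blood side of the hepatocyte, with medians of 1.53 CPM in dosed and 0.19 CPM in control livers (log2FC 2.57, SE 0.70, adjusted p = 0.0151). Replicate 9 was highest at 9.755 CPM, and without it Abcc4 did not pass (log2FC 1.86, adjusted p = 0.108), nor did its second probe in the full comparison (adjusted p = 0.253).

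Fatty acid synthesis genes were among the rises. Of 27 measured 10 rose, 1 fell and 16 did not pass (median log2FC 0.79; 17 rose with scaling by library size alone). The list summed to 14010, 10730 and 8505 CPM in replicates 3, 6 and 4, to 6192 CPM in replicate 1 and to 2268 to 4159 CPM in replicates 2, 7, 8 and 9, against 3802 to 5044 CPM in controls, a sum that also holds the members that did not rise. The risen genes ranked the animals in another order. Fasn, the fatty acid synthase, had 435 CPM in replicate 3, 291.5 in replicate 1, 156 in replicate 8, 149 in replicate 6, 139 in replicate 9, 106 in replicate 4, 77.0 in replicate 7 and 60.25 in replicate 2, against 30.7 to 75.3 CPM in controls, so that 7 of 8 dosed livers were above every control. Without replicates 1, 2, 7 and 8 the count of risen members was again 10, with a median log2FC of 1.02, and without replicate 3 alone it was 6. Acaca, which makes malonyl-CoA, the first committed step, had 89.9, 148 and 503 CPM in the lowest, median and highest dosed liver, against 62.0, 68.3 and 101 CPM in controls (log2FC 1.46, SE 0.27, adjusted p = 0.000367). Gpi1 and Pklr, enzymes of glucose breakdown, were highest in replicate 3 too, with 521 and 180.0 CPM against at most 143 and 85.1 CPM in controls (log2FC 0.98 and 0.87), and Pklr did not pass without replicate 3 (adjusted p = 0.104) or replicate 1 (adjusted p = 0.123). Dgat1, which adds the last acyl chain to triglyceride, was the member that fell (log2FC -0.50, SE 0.14, adjusted p = 0.0175).

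Me1 and G6pdx of that list supply NADPH and are also targets of NRF2, the transcription factor of the oxidative stress response. Of 29 measured NRF2 and glutathione genes 6 rose, 0 fell and 23 did not pass (median log2FC 0.40; 18 rose with scaling by library size alone, and 4 without replicate 3 or 8 alone or without replicates 1, 2, 7 and 8 together). Ftl1, the light chain of the iron store ferritin, had 597, 733 and 1297 CPM in the lowest, median and highest dosed liver, against 504, 562 and 577 CPM in controls (log2FC 0.64, SE 0.14, adjusted p = 0.0016). Its second probe gave log2FC 0.78 (SE 0.16), and the heavy chain Fth1 had 736, 1014 and 1221 CPM against 644, 709 and 784 CPM in controls (log2FC 0.49, SE 0.12, adjusted p = 0.00793). All 8 dosed livers exceeded all controls for Ftl1, and 7 of 8 did for Fth1, with replicate 8 highest for both. Cbr1, a carbonyl reductase, was at 739 CPM in replicate 9 and at 172 to 251 CPM in the lowest and median dosed liver, against 159, 192 and 231 CPM in controls (log2FC 0.64, SE 0.17). Without replicate 9 Cbr1 did not pass (log2FC 0.30, adjusted p = 0.227). The glutathione transferases Gstm1 and Gstm4 were highest in replicate 8, at 2024 and 109 CPM, against at most 573 and 40.9 CPM in controls (log2FC 0.77 and 0.81).

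The most used NRF2 markers did not pass: Nqo1 had 7.15, 14.8 and 25.6 CPM in the lowest, median and highest dosed liver and 6.23, 8.49 and 12.9 CPM in controls (log2FC 0.68, adjusted p = 0.0681), and Srxn1 had log2FC 0.60 (adjusted p = 0.258). Of the 6 risen members with a RefSeq window, 2 held TGACNNNGC, the letters of the antioxidant response element (either strand), and their windows are printed for that reason. Me1 lies at chr9:86695865-86696164 and G6pdx at chrX:74428831-74429130 (GRCm38.p6, minus strand), with the match in capitals; in G6pdx it reads on the other strand.
Me1: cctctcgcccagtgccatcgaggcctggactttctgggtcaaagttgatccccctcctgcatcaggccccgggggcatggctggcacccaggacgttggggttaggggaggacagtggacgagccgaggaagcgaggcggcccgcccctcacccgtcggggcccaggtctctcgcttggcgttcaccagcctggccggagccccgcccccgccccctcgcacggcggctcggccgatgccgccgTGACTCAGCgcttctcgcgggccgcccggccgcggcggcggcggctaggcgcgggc
G6pdx: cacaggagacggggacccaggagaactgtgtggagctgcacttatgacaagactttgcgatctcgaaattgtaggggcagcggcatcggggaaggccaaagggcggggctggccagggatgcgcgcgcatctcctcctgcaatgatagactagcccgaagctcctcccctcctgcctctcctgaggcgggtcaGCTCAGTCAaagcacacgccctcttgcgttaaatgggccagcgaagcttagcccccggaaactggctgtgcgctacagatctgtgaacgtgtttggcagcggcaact
The same letters stood in 16.5% of all tested genes with a window, in 17.9% of the higher and in 18.6% of the lower ones. Me1 had 85.4, 352 and 1765 CPM in the lowest, median and highest dosed liver, against 112, 133 and 238 CPM in controls (log2FC 1.67, SE 0.39), and G6pdx had 1.55, 7.80 and 56.5 CPM against 2.30, 2.99 and 4.69 CPM in controls (log2FC 2.01, SE 0.49). Replicate 3 was highest for both, and without it neither passed (log2FC 1.054, adjusted p = 0.0572 for Me1, and log2FC 1.06, adjusted p = 0.131 for G6pdx). These Me1 values are of probe Me1_30135. A second probe, Me1_77697, also rose, with means of 441 CPM in dosed and 121 CPM in control livers (log2FC 1.87, SE 0.34, adjusted p = 0.000273). Its value without replicate 3 is not given here.

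Iron genes had calls in both directions. Beside the 2 ferritin chains that rose, the plasma carrier of iron, Trf, had 1617, 1981 and 6443 CPM in the lowest, median and highest dosed liver, against 5018, 6088 and 7148 CPM in controls (log2FC -0.90, SE 0.27, adjusted p = 0.0324). Tmprss6, a protease that restrains hepcidin, had medians of 294 CPM in dosed and 533 CPM in control livers (log2FC -0.56, SE 0.17), and Hpx fell as given above. In all, 2 of 17 measured iron genes rose, 3 fell and 12 did not pass. With scaling by library size alone 2 rose and 2 fell and the median of the list was 0.18, against -0.27 with TMM scaling. With the failed library kept 0 rose and 1 fell, without replicates 1, 2, 7 and 8 none passed, and 1 fell when replicate 1, 7, 8 or 9 or control replicate 3 was left out alone.

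Enzymes of alcohol, drug and ester metabolism were mostly lower or did not pass. The list of alcohol and aldehyde dehydrogenases also held the P450 Cyp2e1. Of its 17 measured genes 5 fell, Cyp2e1 among them, 1 rose and 11 did not pass. The median log2FC was -0.35, but 0.13 with scaling by library size alone, where 1 fell and 4 rose. The count of falls was 1 when dosed replicate 1 or 7 or control replicate 7 was left out alone, and 0 members passed without replicates 1, 2, 7 and 8. Adh1, the main ethanol-oxidising enzyme, had 1745, 2468 and 3916 CPM in the lowest, median and highest dosed liver and 2313, 2460 and 2999 CPM in controls (log2FC 0.07, adjusted p = 0.894). Aldh3a2, which clears long-chain fatty aldehydes, had 408, 786 and 856 CPM against 384, 433 and 554 CPM in controls (log2FC 0.69, SE 0.18, adjusted p = 0.0119), with 6 of 8 dosed livers above every control. Adh4 and Aldh1b1 had log2FC -0.70 (SE 0.22) and -0.65 (SE 0.20). Cyp2e1, the P450 that oxidises small alcohols and solvents, had 1019, 3180 and 4703 CPM against 5631, 6685 and 8331 CPM in controls, and all 8 dosed livers were below all controls (log2FC -1.28, SE 0.26, adjusted p = 0.000736).

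Among 18 carboxylesterases and flavin monooxygenases 4 fell and 0 rose (4 and 4 with scaling by library size alone; 1 and 0 without replicates 1, 2, 7 and 8), all 4 of the fallen carboxylesterases: Ces3a and Ces3b as given above, Ces1c (log2FC -1.07, SE 0.33) and Ces1g (log2FC -0.88, SE 0.28). Of 30 targets of CAR and PXR, nuclear receptors that sense foreign compounds, 3 rose and 2 fell (14 rose and 0 fell with scaling by library size alone, 1 rose and 3 fell without replicate 9, and 2 rose and 0 fell without replicates 1, 2, 7 and 8). Cyp2b10, the usual CAR marker, differed widely among the dosed livers. It had 6424 CPM in replicate 9, 1380 in replicate 8, 419 in replicate 2, 173 in replicate 4 and 20.3 to 99.1 in replicates 1, 3, 6 and 7, against 31.6 to 101 CPM in controls. Only the first 4 of these animals were above every control, and the lowest dosed liver was below every control. It had log2FC 4.09 (SE 0.81, adjusted p = 0.000796), and 2.32 (adjusted p = 0.034) without replicate 9, where its second probe did not pass (adjusted p = 0.0638). Of 6 measured targets of the aryl hydrocarbon receptor, 1 fell and 0 rose: Cyp1a2, at 47.9, 129 and 207 CPM in the lowest, median and highest dosed liver, against 290, 366 and 419 CPM in controls (log2FC -1.44, SE 0.31, adjusted p = 0.00209). Among 17 glucuronosyltransferases, of which 5 fell (4 fell and 2 rose with scaling by library size alone, 2 fell without replicate 1, and none passed without replicates 1, 2, 7 and 8), Ugt1a8 was the 1 that rose, with medians of 11.1 CPM in dosed and 2.49 CPM in control livers (log2FC 2.00, SE 0.44, adjusted p = 0.00234). Ugt1a1 was among the 5 that fell, with 382 to 2592 CPM in dosed and 2339 to 3284 CPM in control livers.

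Cell cycle genes passed in number, but in few animals. Of 30 measured 15 rose, 0 fell and 15 did not pass (median log2FC 1.96; 25 rose with scaling by library size alone). Cdk1, the kinase that drives entry into mitosis, had 79.9 CPM in replicate 7, 12.6 in replicate 1, 10.8 in replicate 6, 7.07 in replicate 4 and 0.71 to 3.85 in replicates 2, 3, 8 and 9, against 0.22 to 3.81 CPM in controls (log2FC 2.92, SE 0.62, adjusted p = 0.0018). Mki67, the gene of the proliferation antigen Ki-67, had 29.0 CPM in replicate 7, 16.1 in replicate 1, 6.46 in replicate 6, 3.85 in replicate 4, 0.89 in replicate 3 and 0 in replicates 2, 8 and 9, against 0 to 1.53 CPM in controls (log2FC 3.38, SE 0.96, adjusted p = 0.0204). The same 4 animals were the highest for Birc5, which guards chromosome segregation, at 79.9, 21.8, 16.0 and 8.42 CPM against at most 3.92 CPM in controls. Rrm2, a subunit of the reductase that supplies deoxynucleotides, was also high in replicate 9, at 23.2 CPM against at most 7.77 CPM in controls (log2FC 1.91, SE 0.41). Summed over the list, replicates 7, 1, 6 and 4 held 1326, 616, 541 and 408 CPM and the other 4 dosed livers 218 to 234 CPM, within the control range of 205 to 276 CPM.

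The cell cycle count depended on a few animals. Without replicate 7 alone 2 members rose, and Cdk1 and Mki67 did not pass (adjusted p = 0.113 and 0.133). Without replicates 1 and 7, 0 members rose, without replicates 1, 2, 7 and 8, 1 did, and 2 did in limma or with the 2 groups fitted alone. Pcna and Ccnd1, which act before and during DNA copying, did not pass (log2FC 0.07 and 0.42). The target of p53 that passed was Ccng1, a cyclin induced by DNA damage, with medians of 44.8 CPM in dosed and 31.4 CPM in control livers (log2FC 0.55, SE 0.15, adjusted p = 0.0139), as 1 of 17 measured p53 targets. Of all tested features 2.84% rose. In limma and with the 2 groups fitted alone 0 p53 targets rose, in DESeq2 1 did, and with scaling by library size alone 8 did.

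Cytosolic ribosomal proteins gave 41 rises, each of them small. Of 76 measured genes 41 rose, 0 fell and 35 did not pass, the median log2FC was 0.42 and the range 0.02 to 0.94 (75 rose with scaling by library size alone). Rps24 had 82.7, 94.0 and 120 CPM in the lowest, median and highest dosed liver, against 52.6, 65.7 and 75.0 CPM in controls, with all 8 dosed livers above all controls (log2FC 0.58, SE 0.10, adjusted p = 0.000137). Rps23 had 192, 274 and 386 CPM against 168, 180 and 204 CPM in controls (log2FC 0.58, SE 0.11), and Rps27a 101, 162 and 195 CPM against 93.8, 108 and 120 CPM in controls (log2FC 0.54, SE 0.10). These genes have many near-identical processed copies in the genome, so the share of single members is uncertain. Summed over the list, the dosed livers held 11630 to 17980 CPM, with replicates 9, 8 and 1 highest and replicates 4 and 6 lowest, against 11140 to 12620 CPM in controls. With the failed library kept, or without replicates 1, 2, 7 and 8, 0 of them rose (medians 0.24 and 0.28), 25 rose without replicate 1 alone, and 14 without replicates 1 and 7.

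Subunits of oxidative phosphorylation, the other large protein family measured, did not share this: of 72 measured 0 rose and 1, Ndufa1, fell (median log2FC -0.07, but 0.40 with scaling by library size alone, where 45 rose). Chaperones of the endoplasmic reticulum, where plasma proteins fold, were among the genes that fell. Of 21 members of the unfolded protein response 3 fell and 0 rose: Canx, with medians of 575 CPM in dosed and 1245 CPM in control livers (log2FC -0.81, SE 0.21, adjusted p = 0.0108), Pdia4 (log2FC -0.81, SE 0.25) and Hsp90b1 (log2FC -0.84, SE 0.26). All 3 did not pass without replicates 1, 2, 7 and 8 (adjusted p from 0.83 to 0.89). Of 23 genes of the integrated stress response, which halts translation under stress, 1 rose, Ddit4, an inhibitor of mTOR signalling (medians 0.98 CPM in dosed and 0.22 CPM in control livers, log2FC 2.89, SE 0.91, adjusted p = 0.0376). Ddit4 was at 9.41 CPM in replicate 9 and at 0.35 to 2.70 CPM in the other 7 dosed livers, and without replicate 9 it did not pass (log2FC 1.97, adjusted p = 0.22). For the integrated stress response, 1 of 23 is near the 2.84% of all tested features that rose. In DESeq2, in limma and with the 2 groups fitted alone 0 genes of that list rose, and with scaling by library size alone 7 did. By the reported edgeR test 0 of 15 heat shock proteins and 0 of 20 clock genes passed, with 1 and 2 at an unadjusted p under 0.05. In DESeq2 0 and 1 rose, in limma none, without replicate 4 none and 2, and with scaling by library size alone 7 and 8.

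Some genes of antigen presentation were lower. Of 32 measured genes of antigen presentation and the interferon response 7 fell, 0 rose and 25 did not pass, and 9 of the 32 had a positive log2FC (median log2FC -0.32, but 0.14 with scaling by library size alone, where 2 fell and 3 rose). Without replicate 1, 8 or 9 alone 4 fell, and without replicates 1, 2, 7 and 8 none passed. The fallen genes were 6 of antigen presentation and Iigp1, an interferon-inducible GTPase (log2FC -0.72, SE 0.21), while interferon-induced genes such as Ifit1 (log2FC -0.17), Ifit2 (0.12), Ifit3 (0.25) and Mx1 (-0.46) did not pass. B2m, the light chain of major histocompatibility complex (MHC) class I, had 79.8, 96.1 and 208 CPM in the lowest, median and highest dosed liver, against 193, 211 and 270.2 CPM in controls (log2FC -0.80, SE 0.17, adjusted p = 0.00144). The class I heavy chains H2-K1 and H2-D1 had log2FC -0.91 (SE 0.24) and -0.64 (SE 0.15), and Tapbp, which loads peptide onto them, -0.74 (SE 0.18). Class II genes were among the falls too, with Cd74 at medians of 34.7 CPM in dosed and 63.6 CPM in control livers (log2FC -0.93, SE 0.27) and H2-Aa at 15.9 CPM in dosed and 30.6 CPM in control livers (log2FC -0.96, SE 0.31). The list summed to 1016 to 1611 CPM in replicates 9, 8, 7, 1 and 2 and to 2583 to 2856 CPM in replicates 3, 4 and 6, against 2690 to 3276 CPM in controls. MHC genes are polymorphic and alike, so reads may be shared among them.

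Markers of cell types were read beside these groups. Of 10 hepatocyte markers 5 fell and 0 rose (median log2FC -0.68; 3 fell and 2 rose with scaling by library size alone, and 1 fell without replicates 1, 2, 7 and 8), and their summed level was 9796 to 13140 CPM in replicates 7, 8, 2 and 1, 26400 CPM in replicate 9 and 35150 to 40660 CPM in replicates 3, 6 and 4, against 39630 to 56070 CPM in controls. Kupffer cell and macrophage markers summed to 107 and 119 CPM in replicates 9 and 8 and to 246 to 354 CPM in the other 6, against 233 to 309 CPM in controls, and 0 of 10 passed (edgeR; 0 at an unadjusted p under 0.05, and 0 in DESeq2 and limma). The small counts that follow stand beside 2.84% of all tested features that rose and 3.68% that fell. Of 11 sinusoidal endothelial markers 1 fell, of 10 stellate cell markers 2 fell (with scaling by library size alone 1 and 3 rose and 0 fell), and of 8 fibroblast and scar markers 1 rose, Tagln, a smooth muscle actin-binding protein (log2FC 0.92, SE 0.28). Of these 8 markers 2 had a positive log2FC (median -0.30). Their summed level had medians of 718 CPM in dosed and 2144 CPM in control livers. A sum weighs abundant genes most and does not show that the list fell as a whole. Replicates 3, 4 and 6 held 1938 to 2497 CPM, within the control range of 1735 to 2562 CPM. Fn1 passed as lower by 2 probes (control means 420 and 834 CPM, log2FC -0.75 and -0.95), and a Col1a1 probe had means of 15.4 CPM in dosed and 16.2 CPM in control livers. In DESeq2 and in limma 1 of the 8 markers rose and 1 fell, and without replicates 1, 2, 7 and 8 none passed. The T and NK cell, B and plasma cell, neutrophil and monocyte lists had 5, 7, 2 and 3 measured members and 0 calls in edgeR, with 0, 1, 0 and 0 at an unadjusted p under 0.05 (in DESeq2 1 B and plasma cell gene fell). The part of these markers in the falls of plasma protein genes was not tested.

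**Figure D4:**
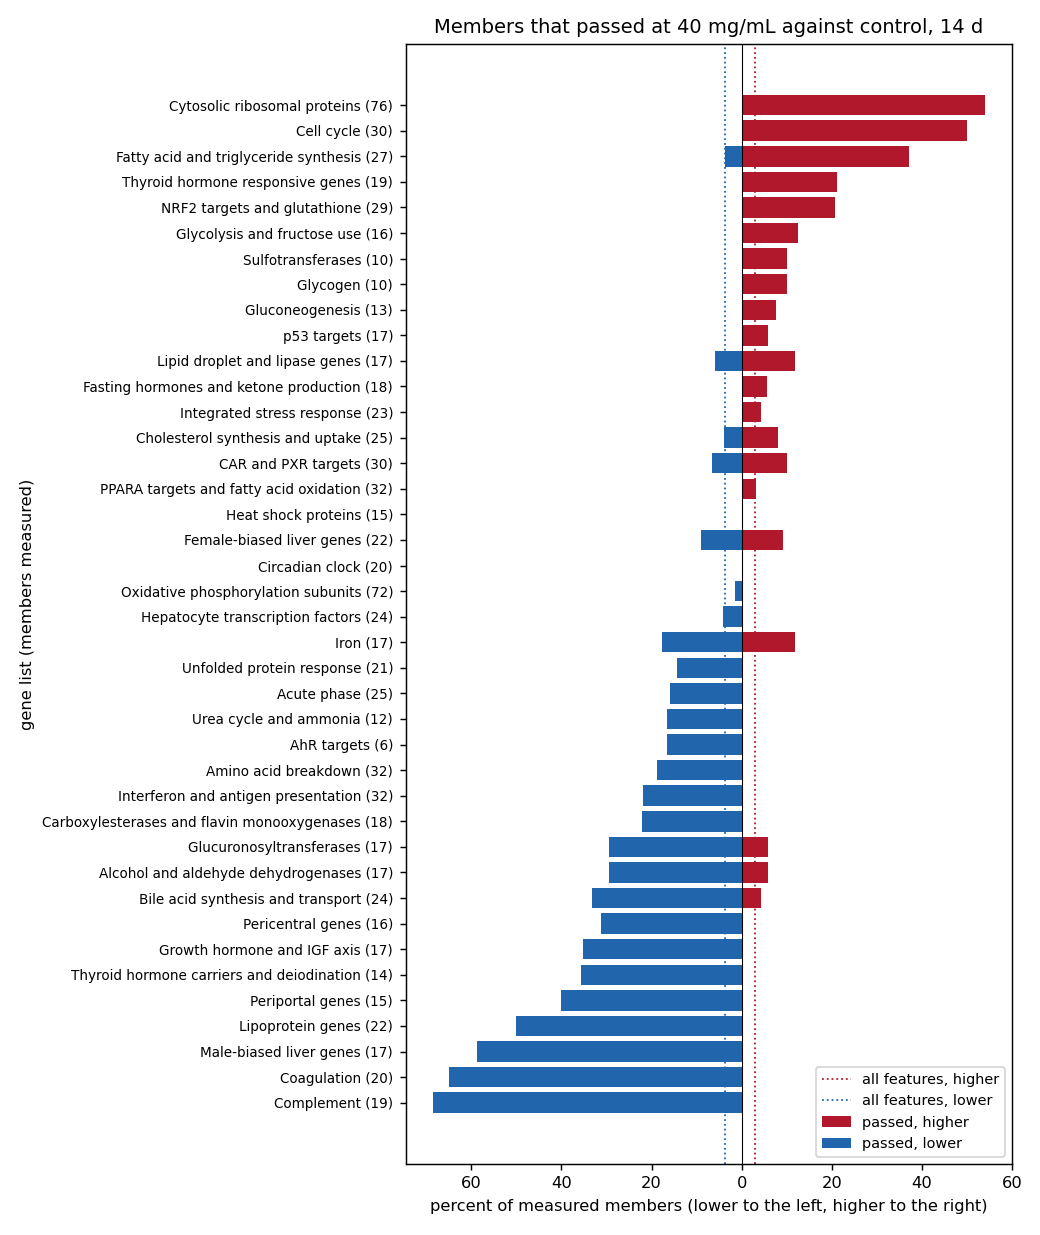
Percent of measured members that passed in each gene list, higher and lower at 40 mg/mL, with dotted lines at the percent of all tested features, 2.84 higher and 3.68 lower. Coagulation, complement, male-biased and lipoprotein genes lead the falls, and ribosomal protein, cell cycle and fatty acid synthesis genes the rises. The dotted lines cover features of all levels. Of features with control means of 100 to 1000 CPM 19.4% fell, and of those at 1000 CPM or more 53.5% fell.

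Of 15 periportal genes 6 fell and of 16 pericentral genes 5 fell, with 0 rises, where 3.68% of all tested features fell. That share holds many features of low level. At control means of 100 to 1000 CPM 19.4% fell, and at 1000 CPM or more 53.5% fell. The lists were not compared with features of a like level. With scaling by library size alone 3 periportal and 3 pericentral genes fell and 0 and 5 rose. Of 19 thyroid hormone responsive genes 4 rose and 0 fell (9 rose with scaling by library size alone). The 4 were Acaca, Me1, Fasn and Thrsp (0.63 to 27.8 CPM in dosed and 1.335 to 6.27 CPM in control livers). Without replicates 1, 2, 7 and 8 these lists had 0, 0 and 3 calls. Other lists held few calls. PPARA targets and fatty acid oxidation gave 1 rise of 32 genes, near the 2.84% of all tested features. With scaling by library size alone 20 rose. The 1 that rose by the reported test was Crat, which couples acetyl groups to carnitine. It had 10.1, 13.5 and 35.2 CPM in the lowest, median and highest dosed liver, against 3.81, 6.19 and 9.69 CPM in controls, and all 8 dosed livers exceeded all controls (log2FC 1.42, SE 0.34, adjusted p = 0.00558). Where 2.84% of all tested features rose, 1 of 18 fasting genes did (6 with scaling by library size alone). It was Lepr, the leptin receptor, with 71.3 CPM in replicate 9, 55.6 in replicate 3 and 10.1 to 26.1 in the others, against 3.84 to 16.3 CPM in controls (log2FC 1.69, SE 0.51, adjusted p = 0.0304). Without replicate 9 or replicate 3 Lepr did not pass (adjusted p = 0.1005 and 0.0566). Fgf21, a fasting and stress hormone, did not pass: it had 22.5, 20.7, 15.3 and 7.93 CPM in replicates 1, 6, 4 and 3 and 0 to 4.37 CPM in the other 4, against 0.56 to 7.33 CPM in controls (log2FC 1.68, adjusted p = 0.206). Saa1, the acute phase serum amyloid, was at 4695 CPM in replicate 3 and at 6.68 to 127 CPM in the other 7 dosed livers, all 7 below the control range of 143 to 357 CPM (log2FC 1.57, adjusted p = 0.467). In DESeq2 the sign was the other way and Saa1 passed as lower (log2FC -1.65, adjusted p = 0.0402).

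Of 25 cholesterol genes 2 rose and 1 fell (9 rose and 0 fell with scaling by library size alone, and 0 rose without replicate 1 or 9). Among all tested features the shares were 2.84% higher and 3.68% lower. Hmgcs1 did not pass, with 13.9 to 188 CPM in dosed and 25.7 to 131 CPM in control livers. Of 12 urea cycle genes 2 fell (2 rose and 0 fell with scaling by library size alone), and of 32 genes of amino acid breakdown 6 fell (with scaling by library size alone 1 fell and 9 rose; 2 fell without dosed replicate 1 or control replicate 3). In the fit without replicates 1, 2, 7 and 8 no cholesterol or urea cycle gene and 1 gene of amino acid breakdown passed. Otc, which makes citrulline in the urea cycle, had medians of 205 CPM in dosed and 318 CPM in control livers (log2FC -0.69, SE 0.17). Cbs, which channels homocysteine to cysteine, had medians of 338 CPM in dosed and 536 CPM in control livers (log2FC -0.72, SE 0.15, adjusted p = 0.0013). Of 14 measured thyroid hormone carriers and deiodinases 5 fell and 0 rose (2 fell and 3 rose with scaling by library size alone). The count of falls was 0 without replicate 1 or 7 alone, without replicates 1, 2, 7 and 8, or with the 2 groups fitted alone, and 8 without replicate 6. Ttr was among the 5 that fell, with 1640 to 5660 CPM in dosed and 4116 to 6261 CPM in control livers. Dio1, a deiodinase that makes active thyroid hormone, missed the threshold at its most abundant probe (44.1, 112 and 215 CPM in the lowest, median and highest dosed liver and 114, 196 and 222 CPM in controls; adjusted p = 0.119), while its probe Dio1_31911 fell, with means of 68.4 CPM in dosed and 120.9 CPM in control livers (log2FC -0.82, SE 0.20, adjusted p = 0.00678). Its other 2 probes did not pass (log2FC -0.49 and -0.44). Of 24 hepatocyte transcription factors 1 fell, Foxa3, a forkhead factor of liver genes (medians 122 CPM in dosed and 222 CPM in control livers, log2FC -0.83, SE 0.21), and 0 rose. That is near the 3.68% of all tested features that fell, and with scaling by library size alone 11 rose and 0 fell. In the fit without replicates 1, 2, 7 and 8 none passed among the transcription factors, the fasting genes, the PPARA, AhR and p53 targets, the integrated stress response and the oxidative phosphorylation subunits.

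The 14 d livers at 10 and 20 mg/mL share their controls with this comparison, so their medians are given side by side without a test. Egfr_29812 had medians of 168, 102, 92.9 and 50.0 CPM at 0, 10, 20 and 40 mg/mL, and C8b 292, 275, 186 and 92.3 CPM. Mug1 had 2168, 1826, 1078 and 715 CPM and Mup13 30810, 28740, 19450 and 7453 CPM. Of the rises, Pctp had 32.1, 39.6, 55.3 and 60.7 CPM, while Cyp2a22, at 6.09, 18.5, 35.0 and 31.4 CPM, and Ftl1, at 562, 631, 750.4 and 733 CPM, were highest at 20 mg/mL. Fasn had 56.4, 56.6, 49.3 and 144 CPM, with the higher median at 40 mg/mL alone. Cyp2b10 had 54.6, 296, 536 and 136 CPM, so that its median at 40 mg/mL was below those at 10 and 20 mg/mL.

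**Figure D5:**
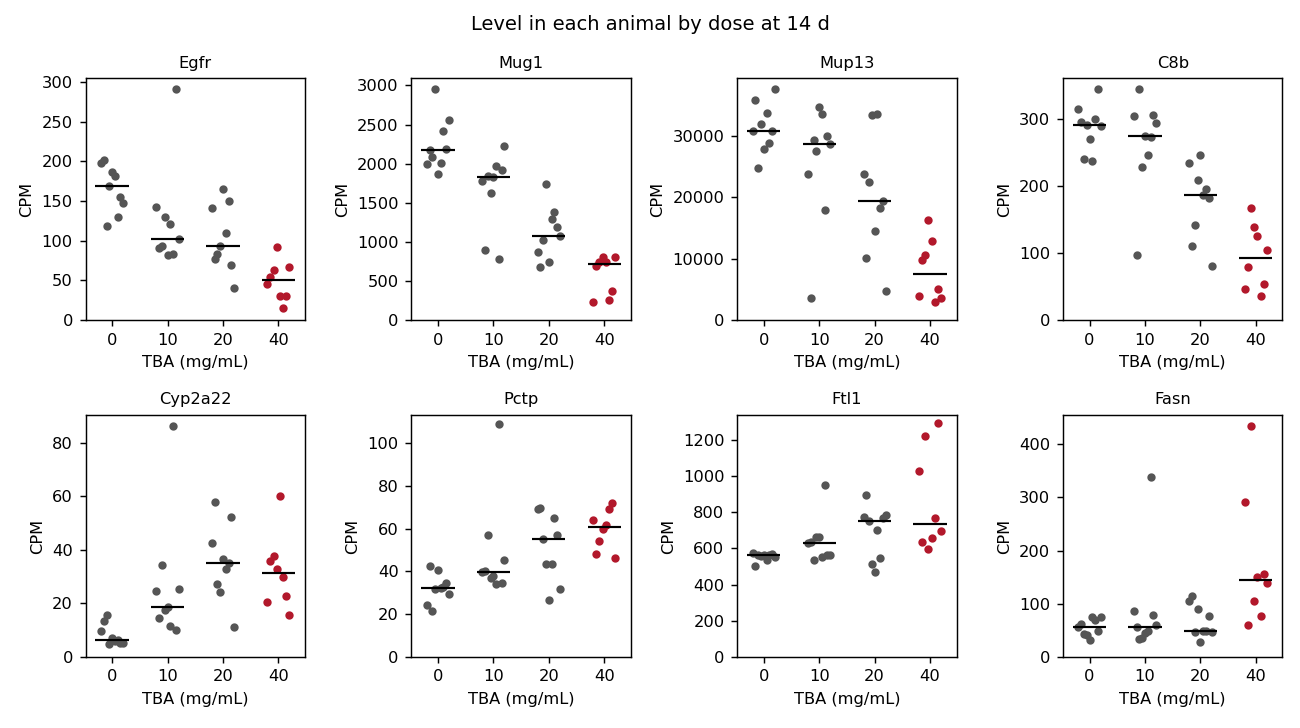
CPM of 8 genes (linear axis from 0) in each 14 d liver by dose in mg/mL (0, 10, 20, 40), 1 point per animal, a short line at each group median. Egfr, Mug1, Mup13 and C8b step down with dose, Cyp2a22 and Ftl1 level off between 20 and 40 mg/mL, and Fasn is higher at 40 mg/mL only.

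Animals dosed with 40 mg/mL for 28 d had controls of their own and so give a separate look at the same features. Of the 484 higher features 386 had a positive log2FC at 28 d (79.8%, against 54.8% of all tested), and of the 627 lower features 555 had a negative one (88.5%, against 45.2%). The sizes were smaller, with a median of 0.19 for the higher and -0.21 for the lower features at 28 d. These features were chosen by passing at 14 d, which by itself favours larger sizes at 14 d, so the sizes are not an even comparison. Egfr_29812 had log2FC -0.24 at 28 d, C8b -0.46, Proc -0.39, Igf1 -0.34 and Mup13 -0.48, against 14 d values of -1.74, -1.61, -0.95, -0.85 and -1.95. Cyp2a22 came closest to its 14 d value among the rises that separated the groups, with log2FC 1.62 at 28 d and 1.98 at 14 d. Birc5 had log2FC 3.55 at 14 d and -0.37 at 28 d. The difference of the 40 mg/mL effect between 14 and 28 d passed in 0 of 17050 features (edgeR; 1081 at an unadjusted p under 0.05), in 0 by limma, and in DESeq2 in 2 with a higher and 29 with a lower effect at 14 d. By the reported test none of these effects was shown to differ between 14 and 28 d.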

How the data were processed

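Liver RNA of 72 mice was read with TempO-Seq from fixed, paraffin-embedded tissue scraped off slides, per the labels' protocols. The deposited values are raw, unscaled whole counts per probe. The authors used bcl2fastq 2.20 and Bowtie, per the submitters' processing notes; the Bowtie version, genome build and counting tool are not given in these sources.

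Dose and duration labels set the groups. They name no batch, plate or replicate, and replicate numbers here follow the listing order. No 2 of the 17 libraries were duplicates (smallest chi-square per degree of freedom 11.7 over 136 pairs). Libraries under 100000 counts were left out, and filterByExpr over the 8 groups kept 17050 of 30146 features (11784 symbols) with 99.93% of counts.

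Counts were tested with edgeR 4.0.16 in R 4.3.3: TMM scaling, robust quasi-likelihood fit with 1 mean per group over 71 libraries (biological coefficient of variation 0.402), with a Benjamini-Hochberg threshold of 0.05. Totals were compared by exact permutation, and 4 such library measures were adjusted together. The probe with the highest mean CPM stood for a gene in lists, and 93 of 546 further probes of listed or named genes differed from it in call. The tests were first tried on simulated counts shaped like this comparison. Alternatives were DESeq2 1.42.0, limma 3.58.1 with quality weights, surrogate variables (sva 3.50.0), other scalings and filters, the groups alone, summed probes, the log2 TMM factor as covariate, the failed library kept, and libraries left out.

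The comparison, the lists of genes and cell type markers (from textbook knowledge) and the rule for named genes were chosen with earlier results of these data known. The rule takes the 12 largest changes each way with at least 5 CPM, the 12 each way that passed in every alternative with 7 or 8 dosed animals without overlap, up to 4 passed members per list by smallest p, 15 genes always named, and up to 5 each way for the difference between durations. Not every feature that the rule took is described above. List members and probes named beyond the rule were chosen after their values were seen. Start regions are from RefSeq's table (GRCm38.p6), which held a window for 9234 of the 11784 tested genes; motifs were searched on both strands and counted separately.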

Additional observations from a re-analysis of the deposited data

Results flagged for a closer look

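The level of 1 animal stood apart from its group in 23 of 300 groups tested, 10 at 40 mg/mL and 13 in controls. The 300 groups were those of the named features, in log2 CPM, and of the library measures, and all 23 were of named features. Such an animal's gap to its nearest neighbour, as a share of the group's range, exceeded the 95% limit of Dixon's test, which chance passes in 5% of groups.

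At 40 mg/mL, replicate 9 was high for the carbonyl reductase Cbr1 (0.5772) and the steroid hydroxylase Cyp17a1 (0.593), and low for G0s2 (0.5641), an inhibitor of triglyceride lipase, and Gulo (0.5647), which makes vitamin C. Replicate 3 was high for the acute phase gene Saa1 (0.5531) and for Gm7298 (0.5794). Replicate 4 was high for Cyp3a41a (0.6355) and low for Cyp7b1 (0.5867). Replicate 1 was high for Gpx4_71385 (0.6305). Saa4, with 0 CPM in 7 of 8 dosed livers, was above 0 in replicate 6 alone (1), which is a ratio with no spread behind it.

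In controls, replicate 1 was high for C8g (0.6691), Fgfr4 (0.6414), Ttr (0.5471) and Hsd3b7 (0.5171), and low for Dio1 (0.663) and Rps24 (0.5148). Control replicate 9 was high for Acaca (0.5104) and low for Igfals (0.6121). Control replicate 4 was low for Akr1b10 (0.6045) and Pnpla3 (0.5385), replicate 3 was high for Cyp17a1 (0.6509) and low for Cyp7b1 (0.6002), and replicate 5 was high for Prc1 (0.5255). A cause was not tested for any of these.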

How the results depend on the processing

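The 1111 calls depended on which livers and which scaling were used. The counts of higher and lower features were 484 and 627 as reported, 97 and 371 with the failed library kept, 234 and 411 with the groups fitted alone, 6129 and 293 with scaling by library size alone, 185 and 511 in limma, 356 and 199 with the log2 TMM factor in the model, 113 and 182 without replicates 1 and 7, and 57 and 32 without replicates 1, 2, 7 and 8. Leaving out single libraries gave 241 (without dosed replicate 7) to 646 (without dosed replicate 6) higher and 339 (without dosed replicate 1) to 862 (without dosed replicate 6) lower features. Without dosed replicate 9, 131 of the 484 higher calls were lost. Under the other alternatives run, DESeq2 among them (641 and 749), counts stayed within 1.5 times the reported ones. The difference in features with at least 10 counts was -805.7 with the failed library kept, by the construction of that alternative. Leaving out single libraries moved it between 660.6 and 986.3, the difference in the share of the 20 most abundant features between -8.419 and -7.139 percentage points, that in the log2 scaling factor between 0.393 and 0.4923 and that in the total between -0.7917 and -0.3433 M counts. For the difference between durations, 1 feature with a higher and 13 with a lower effect at 14 d passed with surrogate variables, 2 and 29 in DESeq2, and 0 and 0 when single libraries were left out.

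Of 146 named features 139 passed, 19 of them in every alternative, and 9 changed sign in some alternative. With scaling by library size alone Adh5 had log2FC 0.1203, Aldh2 0.02057, Ndufa1 0.02601 and Sardh 0.003012; with the covariate Aldh2 had 0.001697, Ces1c 0.08539, Cyp2c54 0.06393 and Tmprss6 0.0007777; Cdc20 had -0.269 in limma and Saa1 -1.653 in DESeq2, where it passed as lower (adjusted p = 0.0402). The cause was not tested. The covariate and the dose both track the same dosed livers, so their parts cannot be told apart. No paired analysis was possible because the labels carry no replicate numbers. Depth limits the features under 5 CPM, and features that did not pass are not shown to be unchanged.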
